A study of Mus musculus with 6 samples.

Results

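The genes described are 10 that are grouped as feedback inhibitors of NF-kB signalling, namely Tnip1, Tnip2, Tnip3, Tnfaip3, Nfkbia, Nfkbib, Nfkbid, Nfkbie, Nfkbiz and Bcl3. They were taken by symbol from a table of RNA-seq read counts for 22905 genes, and all 10 passed the filter on low counts that left 14439 genes. The RNA came from primary hepatic stellate cells of mice with the genotype BucheKI/KI-Hep that had received CCl4, a hepatotoxin used to model liver fibrosis. The libraries were 3 labelled PBS and 3 labelled DOX, every one with that genotype and CCl4. The series describes butyrylcholinesterase over-expression in hepatocytes ahead of stellate cell isolation, so the comparison asks how the isolated cells differed once the enzyme was raised. The labels do not state the promoter that drives the introduced gene, the age of the animals, or whether a library came from 1 animal or a pool. No library of mice without CCl4, or of DOX without the introduced gene, was analysed here, so effects of DOX itself and of the enzyme cannot be told apart.

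The group was proposed with results of these data in view, among them the fold change of Tnip3, so the DOX to PBS differences of the members are a description, and their p-values, from the fit over all genes, are printed only as part of it. Total counts were between 36220282 and 37707364 per library. Bche, the gene of the enzyme, stood at 0.415 ± 0.240 CPM (read counts scaled to the library size) in PBS against 50.5 ± 43.3 CPM in DOX (SD over 3 libraries in each group). Its 35.8, 16.4 and 99.2 CPM in DOX replicates 1, 2 and 3 stood in the same order as the summed hepatocyte markers there (714, 238 and 3105 CPM), and the part of hepatocyte RNA in this check was not tested. Markers of the labelled cell type were present, with Dcn at 496 ± 230 CPM in PBS, although 14 stellate markers summed to 801 to 1804 CPM in PBS, against 5660 to 6956 CPM for 11 endothelial and 4570 to 6966 CPM for 16 macrophage markers. Values therefore describe all RNA in a library, in which fewer cells of a type and less RNA per cell cannot be told apart. The labels do not say that replicates came from separate animals, so the spread on which p-values rest may be only technical.

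NF-kB transcription factors are held in the cytoplasm by IkB proteins. Signals from tumour necrosis factor, interleukin 1 and Toll-like receptors build ubiquitin chains that recruit the IKK kinases, IkB is degraded, and the freed factors enter the nucleus. Several of the genes they switch on shut the pathway down again, among them Nfkbia, which encodes the main IkB, and Tnfaip3, which encodes the ubiquitin-editing enzyme A20. The Tnip genes encode ABIN proteins, named for binding to A20, and those of Tnip1 and Tnip2 also bind ubiquitin chains. Nfkbid, Nfkbiz and Bcl3 encode atypical IkB proteins that act in the nucleus and can raise as well as lower transcription of chosen targets. In liver, the pathway is known for its part in the inflammatory response of macrophages, endothelium and stellate cells to injury.

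The promoters of 5 members are shown first, because recognition sites of NF-kB next to the start are the textbook feature of feedback genes. They are the 250 bases before a start in the RefSeq annotation of GRCm38.p6, 5′ to 3′ on the gene's strand, with matches to the NF-kB consensus in capitals.
Tnip3: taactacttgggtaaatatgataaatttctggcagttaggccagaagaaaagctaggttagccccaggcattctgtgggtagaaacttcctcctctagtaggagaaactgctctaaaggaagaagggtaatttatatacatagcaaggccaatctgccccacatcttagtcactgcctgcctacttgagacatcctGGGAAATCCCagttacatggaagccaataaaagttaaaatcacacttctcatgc
Nfkbie: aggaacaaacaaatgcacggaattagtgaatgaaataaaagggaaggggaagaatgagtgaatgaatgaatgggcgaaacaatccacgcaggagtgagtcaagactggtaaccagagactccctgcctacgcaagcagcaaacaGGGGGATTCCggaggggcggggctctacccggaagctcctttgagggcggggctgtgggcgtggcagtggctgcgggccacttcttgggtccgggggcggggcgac
Tnip1: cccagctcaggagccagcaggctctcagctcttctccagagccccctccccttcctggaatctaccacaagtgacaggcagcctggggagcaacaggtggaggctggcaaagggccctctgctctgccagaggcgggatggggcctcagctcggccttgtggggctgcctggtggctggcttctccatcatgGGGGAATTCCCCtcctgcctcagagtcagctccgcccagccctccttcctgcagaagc
Tnfaip3: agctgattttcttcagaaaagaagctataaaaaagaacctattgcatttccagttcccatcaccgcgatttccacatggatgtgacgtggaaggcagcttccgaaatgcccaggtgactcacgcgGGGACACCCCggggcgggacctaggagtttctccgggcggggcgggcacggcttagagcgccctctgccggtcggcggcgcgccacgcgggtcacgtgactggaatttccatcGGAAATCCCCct
Nfkbia: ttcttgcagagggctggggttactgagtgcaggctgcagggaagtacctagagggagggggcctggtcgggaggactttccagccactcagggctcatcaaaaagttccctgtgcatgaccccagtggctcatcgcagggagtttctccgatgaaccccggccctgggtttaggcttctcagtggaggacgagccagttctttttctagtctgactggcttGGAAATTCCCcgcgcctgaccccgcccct
The windows lie at chr6:65590148-65590397 (plus strand) for Tnip3, chr17:45555450-45555699 (plus strand) for Nfkbie, chr11:54962941-54963190 (minus strand) for Tnip1, chr10:19015411-19015660 (minus strand) for Tnfaip3 and chr12:55492648-55492897 (minus strand) for Nfkbia.

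In Tnip3 the match began at position -54, counting the base before the start as -1, and in Nfkbie at position -106. Tnip1 held a palindromic run that matched 3 times in overlapping frames from position -58. Its window is counted from a start at base 54962940, while the annotated gene reaches base 54962956, so the last bases shown lie within the gene. Tnfaip3 had matches from positions -125 and -12 in the window shown and none in its other window. Nfkbia had 1 match from position -29. Windows were searched on both strands from 250 bases before to 50 bases after each start, and 9 of the 10 members had windows (12 in all, since Tnfaip3 and Nfkbid have several starts). A match was found for 7 of these 9 genes and in 7 of the 12 windows, the others being in Nfkbid and Bcl3, while the windows of Tnip2 and Nfkbib had none. Of all 32851 RefSeq promoter windows of the same length, 8.46% held a match. The STAT motif TTCNNNGAA, in 8.30% of all windows, was found for Tnip1, Tnip2 and Nfkbid, and the AP-1 motif TGANTCA, in 7.81%, for Tnfaip3 and Nfkbie, in neither case overlapping an NF-kB match. A match describes letters and not binding. GENCODE M21 also holds Tnip3 transcripts that begin further upstream, outside the window shown.

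Tnip3 stood apart from the other members in its difference between the groups. It encodes ABIN-3, the ABIN known for its induction in macrophages by bacteria. In GRCm38 it spans bases 65590398 to 65634040 of chromosome 6. Reads assigned to it numbered 716, 527 and 489 in the PBS libraries and 3075, 2535 and 2704 in the DOX libraries, in the order of replicates 1, 2 and 3. After scaling these were 19.0, 13.8 and 12.3 CPM in PBS and 89.9, 71.4 and 73.7 CPM in DOX. All 3 DOX libraries were well above the highest PBS library. The mean rose 5.21-fold, from 15.03 ± 3.49 to 78.3 ± 10.1 CPM (SD over 3 libraries in each group), which is a log2 fold change of 2.38 ± 0.19 SE (adjusted p = 0.0159 by the edgeR quasi-likelihood test). Leaving out each library in turn gave log2 fold changes between 2.26 and 2.58. The call was lost without PBS replicate 2 (edgeR adjusted p = 0.0663) and without PBS replicate 3 (0.0634), where edgeR called no gene of the whole table (3294 and 3092 genes at an unadjusted p under 0.05). DESeq2 and limma-voom, each on all 6 libraries, called 2692 and 862 genes, Tnip3 among them.

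The other ABIN genes did not pass the test. Tnip1 encodes ABIN-1, a widely expressed partner of A20. It had 533, 418 and 421 CPM in PBS replicates 1, 2 and 3 and 553, 798 and 476 CPM in DOX replicates 1, 2 and 3. The groups overlapped, with DOX replicate 2 well above the rest (log2 fold change 0.41 ± 0.21 SE, adjusted p = 0.240 by edgeR, and 0.17 without DOX replicate 2). Tnip2, the gene of ABIN-2, which also holds the kinase TPL2, had 32.4, 24.6 and 30.2 CPM in PBS and 30.3, 37.1 and 25.9 CPM in DOX. Its groups overlapped and the log2 fold change was 0.10 ± 0.17 SE (adjusted p = 0.739 by the edgeR test), with the sign turning to -0.03 by library totals alone and -0.05 without DOX replicate 2. On the FPKM scale, which divides by gene length, Tnip3 made up 2.69, 2.51 and 2.19% of the 3 ABIN transcripts in PBS replicates 1, 2 and 3. In DOX replicates 1, 2 and 3 it made up 11.3, 6.63 and 10.8%. Tnip1 was thus the most abundant ABIN transcript in each library, and the share of Tnip3 did not overlap between the groups.

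Tnfaip3, which edits and removes ubiquitin chains on signalling intermediates, had 638, 453 and 564 CPM in PBS and 682, 955 and 661 CPM in DOX replicates 1, 2 and 3. The lowest DOX library was just above the highest PBS library on this scale, and the groups overlapped as FPKM. The log2 fold change was 0.47 ± 0.19 SE (adjusted p = 0.158 by the edgeR test). For every 100 FPKM of Tnfaip3 there were 3.77, 3.85 and 2.78 FPKM of Tnip3 in PBS replicates 1, 2 and 3. In DOX replicates 1, 2 and 3 there were 16.7, 9.47 and 14.2.

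**Figure D1:**
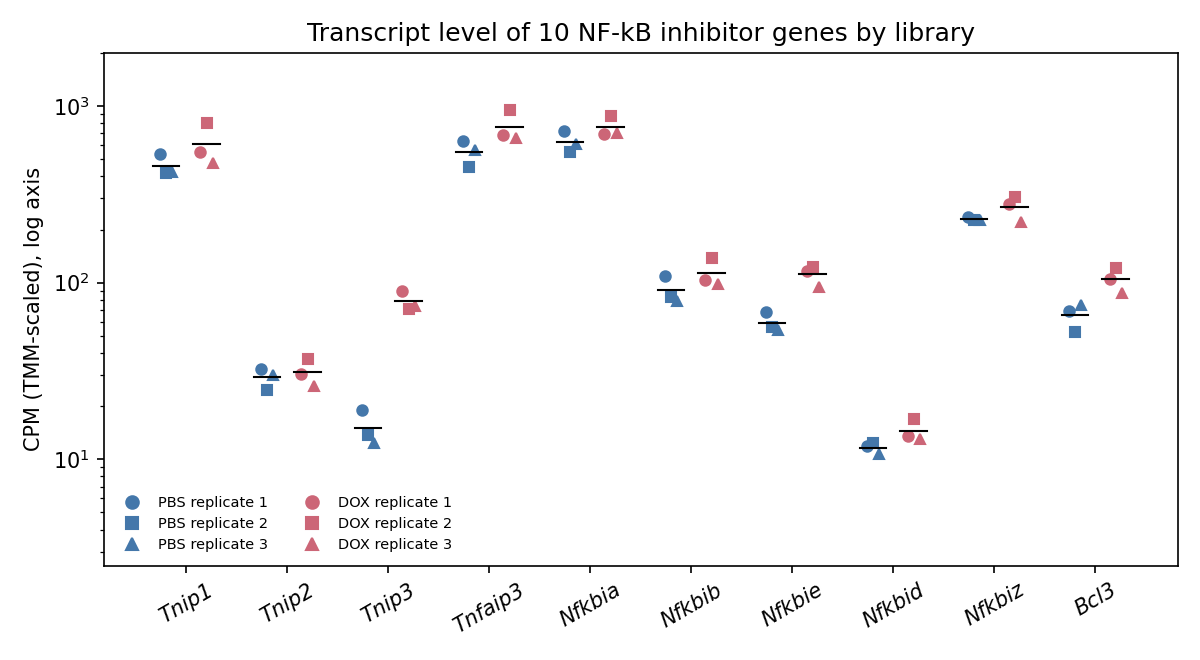
Normalised count (CPM, log axis) of each of the 10 genes in every library, with PBS in blue, DOX in red, a marker shape for each replicate number and a black line at the group mean of 3 libraries. Tnip3 sits between 12.3 and 19.0 CPM in PBS and between 71.4 and 89.9 CPM in DOX, while DOX replicate 2 is the highest library for the other 9 genes.

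Among the classical IkB genes, whose products hold NF-kB until IKK marks them for degradation, Nfkbie was the member that passed. It encodes IkB-epsilon. Nfkbie had 67.8, 55.8 and 53.7 CPM in PBS replicates 1, 2 and 3 and 117, 123 and 94.4 CPM in DOX replicates 1, 2 and 3. The groups were apart on the CPM and the FPKM scale. The mean rose 1.88-fold, with means of 59.1 ± 7.62 CPM in PBS and 111 ± 14.9 in DOX (SD over 3 libraries in each group), which is a log2 fold change of 0.91 ± 0.14 SE (adjusted p = 0.0247 by the edgeR test). The call was lost without PBS replicate 2, PBS replicate 3 or DOX replicate 1 (edgeR adjusted p = 0.0800, 0.0889 and 0.0758), with log2 fold changes between 0.84 and 1.02 over the 6 libraries left out in turn.

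Nfkbia, the IkB-alpha gene, had 720, 549 and 613 CPM in PBS and 692, 878 and 708 CPM in DOX. Its groups overlapped, as PBS replicate 1 was above 2 of the DOX libraries (log2 fold change 0.28 ± 0.15 SE, adjusted p = 0.266 by edgeR). Nfkbib, the gene of IkB-beta, had 110, 83.2 and 78.5 CPM in PBS and 103, 139 and 98.9 CPM in DOX, again with overlap (log2 fold change 0.33 ± 0.18 SE, adjusted p = 0.270 by edgeR). Nfkbib shares its locus with the opposite-strand gene Sirt2, which had 4322 to 5404 counts per library, and since the use of strand in counting is not given in the sources used here, reads of the shared stretch may have been assigned to either. As a part of the 3 classical IkB transcripts on the FPKM scale, Nfkbie made up 5.19, 5.59 and 4.93% in the PBS libraries and 8.96, 7.49 and 7.26% in the DOX libraries. Its share was thus higher in every DOX library than in any PBS library, while Nfkbia stayed the main transcript.

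The atypical IkB genes did not pass the edgeR threshold. Bcl3, whose product pairs with p50 and p52 dimers, had 69.1, 52.3 and 74.7 CPM in PBS and 105, 121 and 87.8 CPM in DOX. Its groups did not overlap on the CPM or the FPKM scale, and the log2 fold change was 0.68 ± 0.17 SE (adjusted p = 0.0582 by the edgeR test). DESeq2 called it higher (adjusted p = 0.00697), as did edgeR with no low-count filter (adjusted p = 0.0490). Nfkbid, the gene of IkB-NS, had 11.9, 12.3 and 10.7 CPM in PBS and 13.5, 16.9 and 13.01 CPM in DOX libraries (log2 fold change 0.32 ± 0.15 SE, adjusted p = 0.207 by edgeR). The Nfkbid groups were apart as CPM and overlapped as FPKM. Nfkbiz, the gene of IkB-zeta, a coactivator of secondary inflammatory genes, had 236, 225 and 228 CPM in PBS and 278, 306 and 221 CPM in DOX. DOX replicate 3 was below every PBS library (log2 fold change 0.22 ± 0.13 SE, adjusted p = 0.294 by edgeR).

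Read together, 2 of the 10 members passed, both higher in DOX, where 6.41% of all genes tested passed in either direction and 4.38% as higher. All 10 log2 fold changes were positive (9 when scaled by library totals alone, Tnip2 being the exception), against 48.6% of all genes. The median was 0.37 for the members and -0.01 for all genes, and 0.24 and -0.14 by library totals alone. For 5 members the groups did not overlap as CPM, each higher in DOX, where 16.9% of all genes did so, and for 3 (Tnip3, Nfkbie and Bcl3) as FPKM, where 12.0% did. Because the members were chosen on this contrast, nothing is read from these shares.

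**Figure D2:**
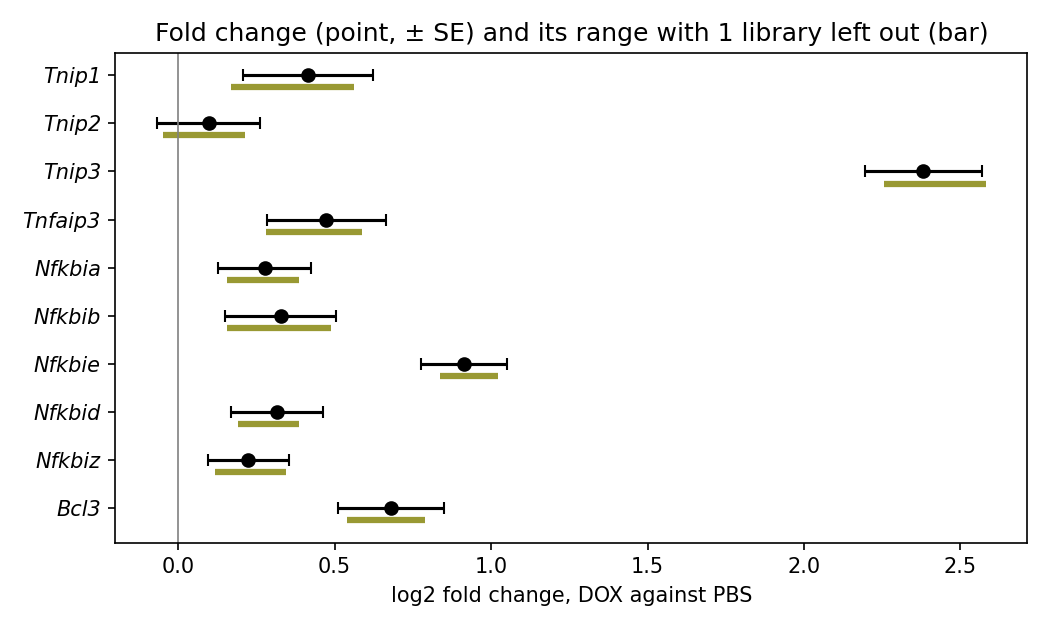
Log2 fold change of DOX against PBS for each of the 10 genes (black point, bar ± SE, edgeR, n = 3 each) and the range of the value when each of the 6 libraries is left out (olive bar). Tnip3 lies between 2.26 and 2.58, Nfkbie between 0.84 and 1.02, and the range of Tnip2 includes 0.

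The DOX libraries did not rank alike for Tnip3 and for the rest. DOX replicate 2 was the highest of all 6 libraries for 9 of the 10 members, on the CPM as on the FPKM scale, where 11.5% of all genes tested (CPM) had their highest value in that library. Tnip3 was the exception, with its lowest DOX value in DOX replicate 2. Relative to the mean of DOX replicates 1 and 3, DOX replicate 2 had 1.55 times as much Tnip1, 1.42 times as much Tnfaip3 and 1.37 times as much Nfkbib, but 0.872 times as much Tnip3. Of 105 other genes of the pathway, 43 (41.0%) were highest in DOX replicate 2. In PBS, replicate 1 was the highest for 8 of the 10 members, Tnip3 among them, with Nfkbid and Bcl3 being the others. The share of all genes for which it was the highest PBS library was not computed. Without DOX replicate 2 the median log2 fold change of the members was 0.18, and Tnip3 (2.44, edgeR adjusted p = 0.0358) and Nfkbie (0.84, edgeR adjusted p = 0.0491) kept their calls.

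Per gene length, Nfkbia was the most abundant member in PBS at 414 ± 49.8 FPKM (SD, n = 3), followed by Tnip1 at 148 ± 18.1, Tnfaip3 at 120 ± 18.6 and Nfkbiz at 61.7 ± 0.452 FPKM. Below them came Nfkbib at 44.4 ± 7.37, Bcl3 at 37.0 ± 6.53, Nfkbie at 25.3 ± 2.75 and Tnip2 at 15.4 ± 1.95 FPKM. Nfkbid at 5.31 ± 0.375 and Tnip3 at 4.16 ± 0.879 FPKM were the lowest. Between neighbours in this order, the libraries of Nfkbib and Bcl3 overlapped, as did those of Nfkbid and Tnip3. In DOX, Tnip3 at 19.9 ± 2.10 FPKM was above Tnip2 at 15.1 ± 2.37 FPKM, its libraries not overlapping those of Tnip2 (17.8 to 22.0 against 13.3 to 17.8 FPKM, the nearest pair being 17.84 and 17.77). Nfkbie at 43.6 ± 4.22 FPKM overlapped in DOX with Nfkbib at 51.1 ± 9.08 FPKM, from which it was apart in PBS. Tnip1 and Tnfaip3 overlapped in DOX and only just failed to in PBS, where the nearest pair was 136.87 and 136.52 FPKM.

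Macrophage markers, like the members, were higher in the DOX means, but within the groups they ranked differently from most members. All 16 markers had a positive log2 fold change, with a median of 1.23, and none was at 0 in any library. By edgeR 3 passed (C1qb, C1qc and Itgam, named after their values were seen), with 13 at an unadjusted p under 0.05. DESeq2 called 11 of the markers and limma-voom 5, all higher. Among the 14439 genes tested, 926 passed by edgeR and 4139 had an unadjusted p under 0.05, while DESeq2 called 2692 and limma-voom 862. For 13 of the 16 the groups did not overlap as CPM, each higher in DOX, where 16.9% of all genes did so. Their summed level was 4765, 6966 and 4570 CPM in PBS replicates 1, 2 and 3 and 15322, 8327 and 9468 CPM in DOX replicates 1, 2 and 3. The sum was thus lowest within DOX in replicate 2, where 9 members were highest, and highest within PBS in replicate 2, where 6 members were lowest. Tnip3 had the order of the sum within DOX (replicates 1, 3, 2) and not within PBS. The most abundant of them, Mpeg1 and Lyz2, were 1.66-fold and 1.502-fold higher in the DOX mean, and neither passed by edgeR (adjusted p = 0.0890 and 0.238). Over the 16 markers the fold was between 1.27 and 5.73, and only that of Timd4, at 5.73, exceeded the 5.21 of Tnip3, while 12 exceeded the fold of Nfkbie and 13 that of Bcl3.

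Set against these markers, Tnip3 was the 1 of 10 members whose groups did not overlap, where 1.88% of all genes tested were higher without overlap on the same ratio, which was computed after the values were seen. For every 1000 normalised counts of the 16 markers there were 3.98, 1.98 and 2.70 of Tnip3 in PBS replicates 1, 2 and 3. In DOX replicates 1, 2 and 3 there were 5.87, 8.57 and 7.79. Nfkbie had 14.2, 8.01 and 11.8 per 1000 in PBS and 7.63, 14.7 and 9.97 in DOX, and Bcl3 14.5, 7.51 and 16.4 in PBS and 6.85, 14.6 and 9.27 in DOX. Both therefore overlapped, as did the other 7 members. On this ratio the DOX mean was below the PBS mean for every member but Tnip3. Nfkbia, for example, had means of 121 per 1000 in PBS and 75.1 in DOX, and Nfkbie 11.3 and 10.8. The ratio depends on the markers in the sum. Ratios to the summed markers of other immune cells were not computed, and on these the Tnip3 groups may overlap. The part of macrophage RNA, or of other immune cell RNA, in the differences of the members, Tnip3 included, was not tested.

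**Figure D3:**
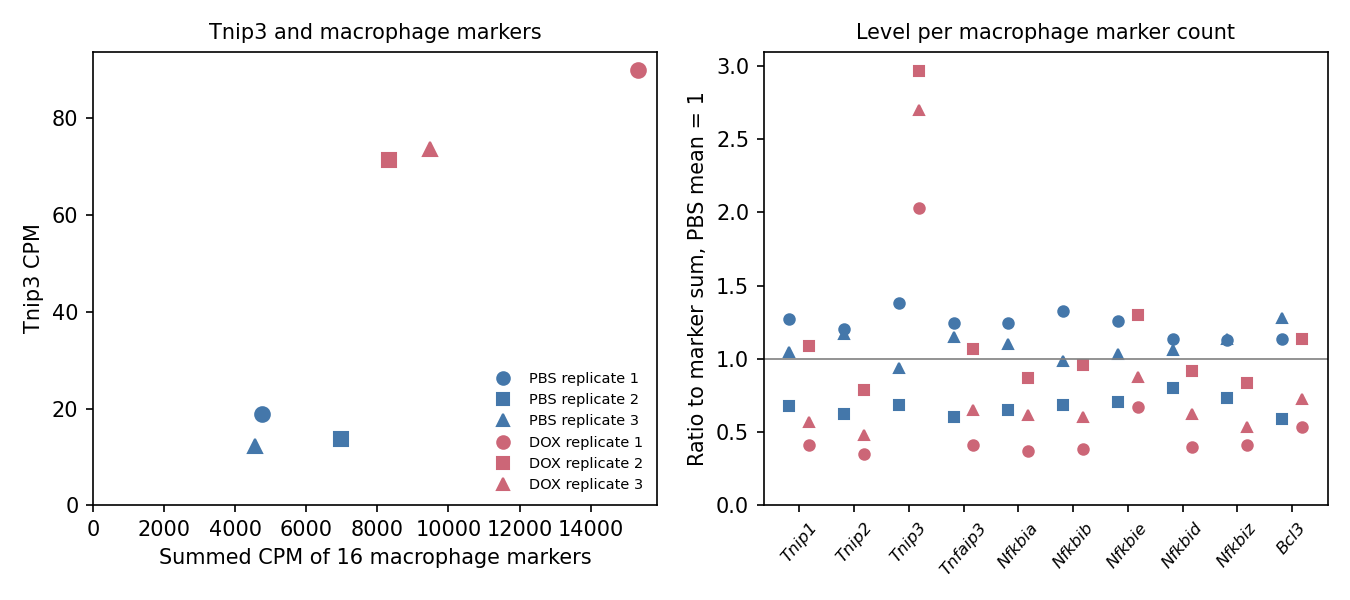
Left, Tnip3 CPM against the summed CPM of 16 macrophage markers in each library (PBS blue, DOX red, shape by replicate number). Right, each gene divided by that sum and scaled to its PBS mean of 1, where the 3 DOX libraries of Tnip3 lie above all 3 PBS libraries and those of the other 9 genes overlap with PBS.

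Markers of other cells also differed. The 8 tested markers of monocytes and neutrophils were all positive and 3 passed by edgeR (S100a8, S100a9 and Csf3r), with a sum of 47.3 to 153 CPM in PBS and 247 to 275 CPM in DOX, while Ly6g, the defining marker of neutrophils, was at 0 in libraries of both groups. Csf3r and Chil3, the most abundant, had means of 39.3 and 47.9 CPM in PBS and 115 and 95.4 CPM in DOX. Of 9 tested markers of dendritic cells and lymphocytes 3 passed by edgeR as higher (Flt3, Siglech and Nkg7), with a sum of 2.27 to 6.75 CPM in PBS and 16.6 to 26.3 CPM in DOX. The 12 hepatocyte markers, led by Alb and Ahsg, summed to 135 to 345 CPM in PBS and 238 to 3105 CPM in DOX, lowest within DOX in replicate 2. By edgeR 0 of them passed, with 11 at an unadjusted p under 0.05, while DESeq2 called 7, all higher, and limma-voom 0. Among all 14439 genes tested, 926 passed by edgeR, 4139 had an unadjusted p under 0.05 and DESeq2 called 2692. Of 11 endothelial markers, led by Cdh5 and Pecam1, 1 (Tek) passed by edgeR as lower (3 lower and 1 higher by DESeq2), with a sum of 5026 to 6127 CPM in DOX. The 14 stellate markers, led by Dcn and Ecm1, had a median log2 fold change of 0.06. By edgeR and by limma-voom 0 of them passed (2 and 1 at an unadjusted p under 0.05), while DESeq2 called 1 as lower, namely Acta2, the smooth muscle actin gene of activated stellate cells, named after its values were seen (39.2 ± 14.8 CPM in PBS, 17.9 ± 4.78 in DOX, SD over 3 libraries, DESeq2 adjusted p = 0.00786). Their part in the results was not tested.

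The genes most like Tnip3 over the 6 libraries, by Pearson's r of log2 CPM among genes with a mean of at least 1 CPM, were B3gnt5, Htr7, Klk1, Ppp2cb and Ccr7. The values of r were 0.999, 0.999, 0.995, 0.994 and 0.994, which describe 2 sets of 3 libraries that lie apart. B3gnt5, a glycosyltransferase of glycolipid synthesis, had a mean of 1.12 CPM in PBS and 5.76 CPM in DOX. Ccr7, the chemokine receptor of migrating dendritic cells and naive lymphocytes, had 26.3, 18.6 and 14.7 CPM in PBS and 94.7, 79.2 and 69.1 CPM in DOX, near the level and the spread of Tnip3. Htr7, a serotonin receptor gene, and Klk1, a kallikrein gene, were at 0.253 and 0.244 CPM in PBS and 3.13 and 1.95 CPM in DOX. Ppp2cb, a catalytic subunit of protein phosphatase PP2A, had a mean of 85.1 CPM in PBS and 98.1 CPM in DOX, so its likeness is one of order and spacing and not of fold.

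The remainder of the pathway was described in 4 lists, of which 19 of 105 genes passed, all higher in DOX, beside the 6.41% of all genes. DESeq2 called 37 higher and 2 lower (Ikbkg and Il1r1), and limma-voom 17, all higher. Over all 14439 genes tested, DESeq2 called 1677 higher and 1015 lower, and limma-voom 581 and 281. The pooled median log2 fold change was 0.36. Of 11 genes of NF-kB subunits and IKK kinases, 2 passed and the median was 0.31. Ikbke, an IKK-related kinase gene of interferon and NF-kB signalling, rose 2.77-fold, with means of 75.3 ± 18.5 CPM in PBS and 208 ± 42.1 in DOX (edgeR adjusted p = 0.0247). Rel, the gene of the c-Rel subunit, rose 1.66-fold, with means of 48.8 ± 3.41 CPM in PBS and 80.8 ± 16.9 in DOX (edgeR adjusted p = 0.0467, but 0.0535 by limma-voom). Nfkb1, which encodes p105 and p50, had 332 ± 25.6 CPM in PBS against 465 ± 77.9 CPM in DOX (edgeR adjusted p = 0.0849), and Ikbkg, the scaffold of the IKK complex, 75.8 ± 4.39 and 61.1 ± 3.01 CPM (0.0711; SD, n = 3 each).

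Of 22 other negative regulators, 4 passed (18.2%, beside 6.41% of all genes tested) and the median was 0.33. Irak3, a kinase-like brake on Toll-like receptor signalling, rose 2.70-fold, with means of 28.5 ± 5.25 CPM in PBS and 77.0 ± 19.0 in DOX (edgeR adjusted p = 0.0240). Tnfaip8l2, an inhibitor of immune cell activation, rose 2.74-fold, with means of 6.60 ± 1.25 CPM in PBS and 18.1 ± 3.90 in DOX. Zfp36, whose product destabilises cytokine mRNA, rose 2.07-fold, with means of 148 ± 27.1 CPM in PBS and 308 ± 50.04 in DOX. Tank, an adaptor that restrains TRAF signalling, rose 1.47-fold, with means of 54.7 ± 7.24 CPM in PBS and 80.3 ± 2.02 in DOX (edgeR adjusted p = 0.0247, 0.0277 and 0.0365 for the last 3).

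Of 33 genes of receptors, adaptors and ubiquitin ligases, 3 passed (9.09%, near the 6.41% of all genes tested) and the median was 0.25. Cd14, the co-receptor of lipopolysaccharide, had 168, 165 and 153 CPM in PBS and 476, 387 and 406 CPM in DOX, with its libraries in the same order as Tnip3 within DOX (2.61-fold, edgeR adjusted p = 0.0159). Myd88, the adaptor of Toll-like and interleukin 1 receptors, rose 1.75-fold, and Birc2, a ubiquitin ligase of TNF receptor complexes, 1.68-fold (edgeR adjusted p = 0.0310 and 0.0480). The call of Birc2 was lost by limma-voom (adjusted p = 0.0547). Cd40, a TNF receptor family member, had 54.6 ± 31.0 CPM in PBS against 182 ± 49.9 CPM in DOX (edgeR adjusted p = 0.0505). The count of this list was 6 by library totals alone and 11 by DESeq2, where 1341 and 2692 of all 14439 genes tested were called.

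Of 39 inflammatory target genes, 10 passed (25.6%, beside 6.41% of all genes tested) and the median was 0.58. Il1b rose 6.04-fold, with means of 95.1 ± 22.6 CPM in PBS and 575 ± 161 in DOX, Tnf 3.08-fold, with means of 60.9 ± 9.87 CPM in PBS and 187 ± 37.6 in DOX, and Il1a 3.02-fold, with means of 168 ± 29.6 CPM in PBS and 506 ± 83.0 in DOX (edgeR adjusted p = 0.0200 for each). These encode the cytokines that signal to NF-kB. Sod2, a mitochondrial superoxide dismutase gene, rose 2.14-fold, with means of 257 ± 28.5 CPM in PBS and 550 ± 72.3 in DOX (edgeR adjusted p = 0.0206). Ier3, an early response gene, and Cxcl1, a chemokine gene, both named after their values were seen, did not pass, with means of 661 and 573 CPM in PBS and 674 and 515 CPM in DOX (edgeR adjusted p = 0.900 and 0.738). No pathway gene passed without PBS replicate 2 or 3, and 5 and 9 passed without DOX replicates 1 and 2.

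**Figure D4:**
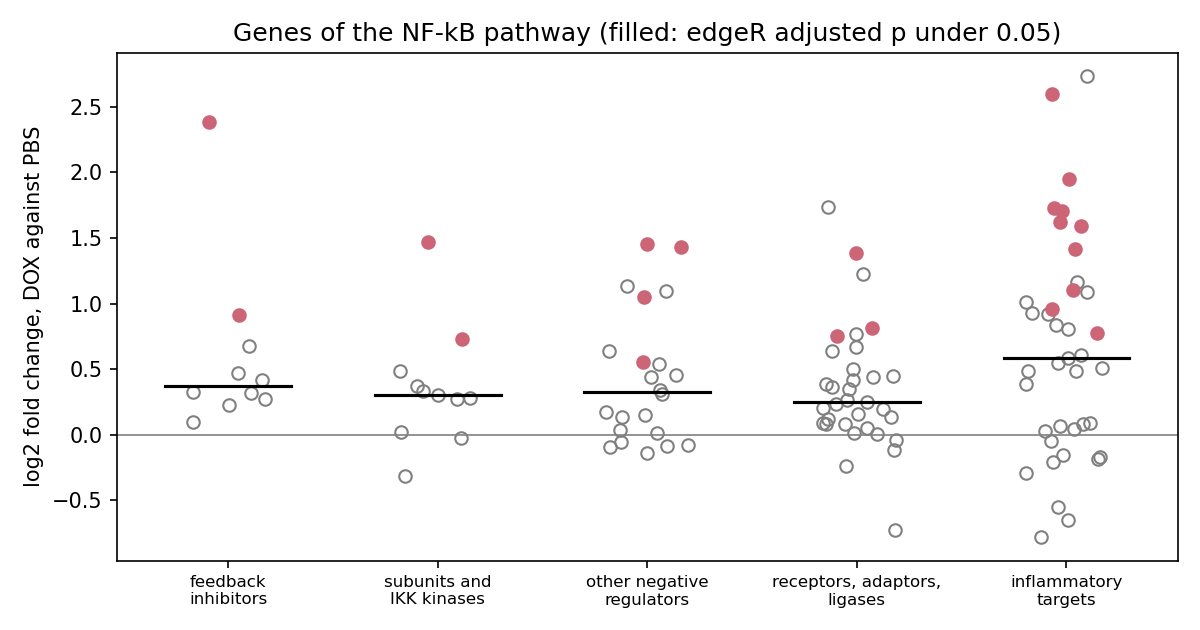
Log2 fold change of DOX against PBS for the 10 feedback inhibitors and for the 11, 22, 33 and 39 genes of the 4 other pathway lists, with 1 circle a gene, filled where the edgeR adjusted p is under 0.05, and a black line at the median. The medians are 0.37, 0.31, 0.33, 0.25 and 0.58, and the filled circles are all above 0.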

How the data were processed

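RNA-seq counts of 6 libraries, 3 PBS and 3 DOX by their titles, were used. The authors deposited raw counts per gene symbol and FPKM values of the same genes, 1 column per library with no pooling. Per the labels' protocols, an RNeasy kit gave the RNA and a SMARTER mRNA-Seq kit the libraries. Per the submitters' processing notes, GRCm38, mm10 and hg38 are listed as builds without a stated role. The aligner, counter and strand setting were not given in the sources used here. Each nonzero deposited FPKM value followed from the count, the library total and a fixed gene length within a relative tolerance of 1e-04 (100% of values).

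Counts were tested with the quasi-likelihood test of edgeR 4.0.16 (R 4.3.3) with TMM factors (0.923 to 1.06), group as the only term and filterByExpr defaults (minimum count 10, minimum total 15), two-sided, with Benjamini-Hochberg adjustment over 14439 genes and a threshold of 0.05. The SE was derived from the F statistic. The code was tested on simulated data, where 48 of 100 genes given a log2 fold change of size 1 passed, and 81 of 100 given size 2. A gene that did not pass may therefore still differ. Counts of 3 reads, the limit that a count of 0 allows, were worth 0.0757 to 0.0877 CPM, for counting error only. A chi-square per degree of freedom of 38.6 to 82.1 between replicates showed no library deposited in duplicate.

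The members and lists were chosen with earlier results of these data known. Named were all members, up to 4 genes with the lowest p of each pathway list, the 2 most abundant of each marker list, the 5 genes most like Tnip3 and Bche; others are marked in the text. Trac, 1 of the lymphocyte markers, was not matched. The values of a further marker are not reported here. Coordinates, 5′ starts and promoters are from RefSeq (GRCm38.p6), and promoters were matched by symbol. Alternatives were scaling by upper-quartile factors, by RLE factors or by library totals alone, 2 other count filters, a robust fit, DESeq2 1.42.0, limma-voom (limma 3.58.1), a replicate block, limma on FPKM values on the log2 scale with pseudocounts of 1 and 0.1, and each library left out in turn.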

Additional observations from a re-analysis of the deposited data

How the results depend on the processing

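The number of genes called, 926, was 2692 by DESeq2 and 404 by limma on log2(FPKM + 1) with no filter, where the members called were 1 in place of 2 (Tnip3) and the pathway genes 5 in place of 19. DESeq2 called 39 pathway genes and 3 members. With each library left out in turn the counts were between 0 and 1090 for all genes, 0 and 2 for the members and 0 and 24 for the pathway genes. The zeros came without PBS replicate 2 and without PBS replicate 3, and without DOX replicates 1 and 2 there were 85 and 438 genes, 1 and 2 members. Higher calls were 68.3% of all calls, but 45.6% by library totals alone (611 higher, 730 lower), where the median of all genes moved to -0.14, and 28.96% by limma on log2(FPKM + 1) with no filter.

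Of the members, Tnip3 was called in 16 of 18 alternatives and Nfkbie in 14. Tnip2 turned from 0.10 to -0.0318 (library totals alone), -0.035 and -0.0329 (limma on log2(FPKM + 0.1) and log2(FPKM + 1), the latter also with no filter), and ranged from -0.0497 (without DOX replicate 2; -0.0116 without PBS replicate 2) to 0.2125 with libraries left out. Dcn, at 0.17, turned to -0.01 without DOX replicate 2, -0.0031 without PBS replicate 1 and -0.0294 without PBS replicate 2, with 0.6142 as the highest value. The cause was not tested.

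Same-numbered PBS and DOX libraries share only a number. Their deviations from the group means correlated at 0.095, -0.106 and 0.232 for replicates 1, 2 and 3, and not every library correlated best with its own number. With the replicate block, edgeR called 781 genes, 2 members and 23 pathway genes.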

Other observations

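Of the 105 pathway genes outside the 10 inhibitors, 42 lay higher in every DOX library than in any PBS library as CPM. Of all genes tested, 16.9% did so. Another 4 lay lower in every DOX library as CPM, where 17.7% of all genes did so, and these 4 were also lower without overlap as FPKM. Some others were lower without overlap as FPKM alone. The 4 were named after their values were seen, and none passed the edgeR test, whereas DESeq2 called Il1r1 and Ikbkg lower (DESeq2 adjusted p = 0.00636 and 0.0187). Il1r1, the signalling receptor of interleukin 1, had 284, 254 and 312 CPM in PBS replicates 1, 2 and 3 and 126, 205 and 184 CPM in DOX replicates 1, 2 and 3, with means of 284 ± 29.0 and 172 ± 40.9 CPM (SD, n = 3 each; log2 fold change -0.72, SE 0.19, edgeR adjusted p = 0.0625). Map3k7, the gene of the kinase TAK1 that activates IKK, had means of 72.9 ± 3.86 and 61.7 ± 2.58 CPM (log2 fold change -0.24, edgeR adjusted p = 0.110). Irak1, a kinase of the same receptors, had 68.7 ± 2.91 and 63.5 ± 3.30 CPM (edgeR adjusted p = 0.395). The fourth was Ikbkg, whose values stand with the IKK genes.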
